A study of Mus musculus with 15 samples.

Results

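Fos, Fosb, Fosl1, Fosl2, Jun, Junb, Jund, Egr1, Egr2 and Myc are 10 transcription factor genes of the AP-1, Egr and Myc families, and their transcripts were measured in the mouse heart apex 3 days after aortic constriction or sham surgery. They were taken by symbol, as every probe whose accession maps to one of these 10 names, which gave 14 of 41174 probes and 10 of 17178 named genes. All 14 probes passed the filter on dim probes, so no member was lost to it. Male mice on a C57BL6 background, 10 wk old, had transverse aortic constriction (TAC), a narrowing of the aortic arch that raises the pressure the heart pumps against, or a sham operation. All mice carried a cre transgene named for a myosin heavy chain promoter (MHC-cre), a promoter used to drive recombination in heart muscle cells, and the KO mice carried klf4 in the genotype label as well, for deletion of the factor Klf4 in those cells. The groups were Cre sham (MHC-cre, n = 4), Cre TAC (MHC-cre, n = 3), KO sham (MHC-cre-klf4, n = 4) and KO TAC (MHC-cre-klf4, n = 4), each array being 1 numbered animal as far as the labels say. The labels speak of 4 animals a group, and 15 samples were analysed here. Mice without cre were not among them. The other cells of the apex, which the transgene does not target, were in every RNA sample. In such bulk RNA, fewer cells of a type and less RNA per cell cannot be told apart.

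AP-1 is a dimer of a Fos family protein with a Jun family protein, and the pair binds a short palindromic DNA site. Egr1 and Egr2 are zinc finger factors that bind GC-rich promoters, and Myc pairs with Max at E-boxes to raise genes of ribosome building and growth. In most cells some of these genes, such as Fos and Egr1, are switched on within minutes of a stimulus, without new protein synthesis. MAP kinase signals do this through serum response factor and its partners, and the transcripts fall again soon after. In heart muscle their early induction by stretch and pressure is textbook knowledge, so the question put to these arrays is which of them were still raised days later.

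The 15 one-colour arrays lay on 4 slides, and levels are given as log2 of the processed signal minus the 75th percentile of the same array, so that 0 is the signal of a probe at that percentile. A difference of 1 is a doubling. Levels of different probes are not on a common scale and are never set against each other here. One array stood apart. In KO TAC replicate 4 the median signal was 454 and 96.0% of probes were well above background, against 88.2 to 147 and 66.1% to 75.7% on the other 14 arrays, and its median correlation with the others was 0.807 against 0.961 to 0.982. Results are therefore also given without it. The genotype labels are not settled: 14 of 15 scanner files matched, by rank, a column of the authors' value table with the same operation and the other genotype, and the file of KO TAC replicate 4 matched none. The groups below are those the scanner files were filed under, and every genotype direction is the opposite of that in the value table. The mean of the TAC responses of both genotypes stays the same if the genotype labels of all 15 arrays are exchanged together. The match does not place KO TAC replicate 4, and without that array the mean does not depend on the exchange. A further label, the free-text description, gave the other operation for 7 of 15 samples, and the title and source name were followed. The level of Klf4 itself did not separate the groups, at 3.72 to 4.30 in Cre sham, 3.99 to 4.25 in Cre TAC, 3.26 to 4.49 in KO sham and 3.52 to 4.50 in KO TAC. The place of its probe relative to the deleted part was not known, and other cells keep the gene, so this level checks nothing. All 8 cardiomyocyte markers were well above background on every array. Nppa and Nppb, natriuretic peptide genes that heart muscle raises under load, were higher after TAC by 1.31 (SE 0.22; limma adjusted p = 0.000878) and 1.92 (SE 0.28; limma adjusted p = 0.000264) on the log2 scale, as the mean of both genotypes. Acta1, skeletal alpha-actin, rose by 1.22 (SE 0.33; limma adjusted p = 0.0158), and Myh7, the slow myosin heavy chain gene, was at 0.073 (limma adjusted p = 0.880). In the hearts filed as KO only Nppb of these 4 was called, and Nppa was at 0.56 (limma adjusted p = 0.222). The summed level of the 4 was 231 to 411 in Cre sham, 877 to 971 in Cre TAC, 464 to 998 in KO sham and 609 to 1304 in KO TAC, so KO sham lay above Cre sham and overlapped both TAC groups.

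Fos, Fosl1, Fosl2, Junb, Egr1, Egr2 and Myc were higher 3 days after TAC as the mean of both genotypes, by 1.05 to 3.30 on the log2 scale, and none of the 10 factors was called lower. Jun, Jund and Fosb did not pass the test. Egr2 rose 9.84-fold, a difference of 3.30. The difference was 2.81 with normexp background correction and quantile scaling, and 3.12 in the authors' value table. The size for Fosl1, whose sham levels lay near background, changed with the processing, and it is given no rank. Calls used limma with Benjamini-Hochberg adjustment over 25780 features at an adjusted p of 0.05. By that rule 7 of 10 members were called higher, where 13.3% of all features tested were called higher and 13.7% lower. The median difference of the 10 members was 1.15, against 0.044 over all features. Without KO TAC replicate 4 the members called were again 7 of 10, with 18.5% of all features called higher. Under median scaling Fosl2, Junb and Egr1 missed the threshold. With the operation taken from the description field no member was called, and 0 of 25780 features were called in either direction.

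**Figure D1:**
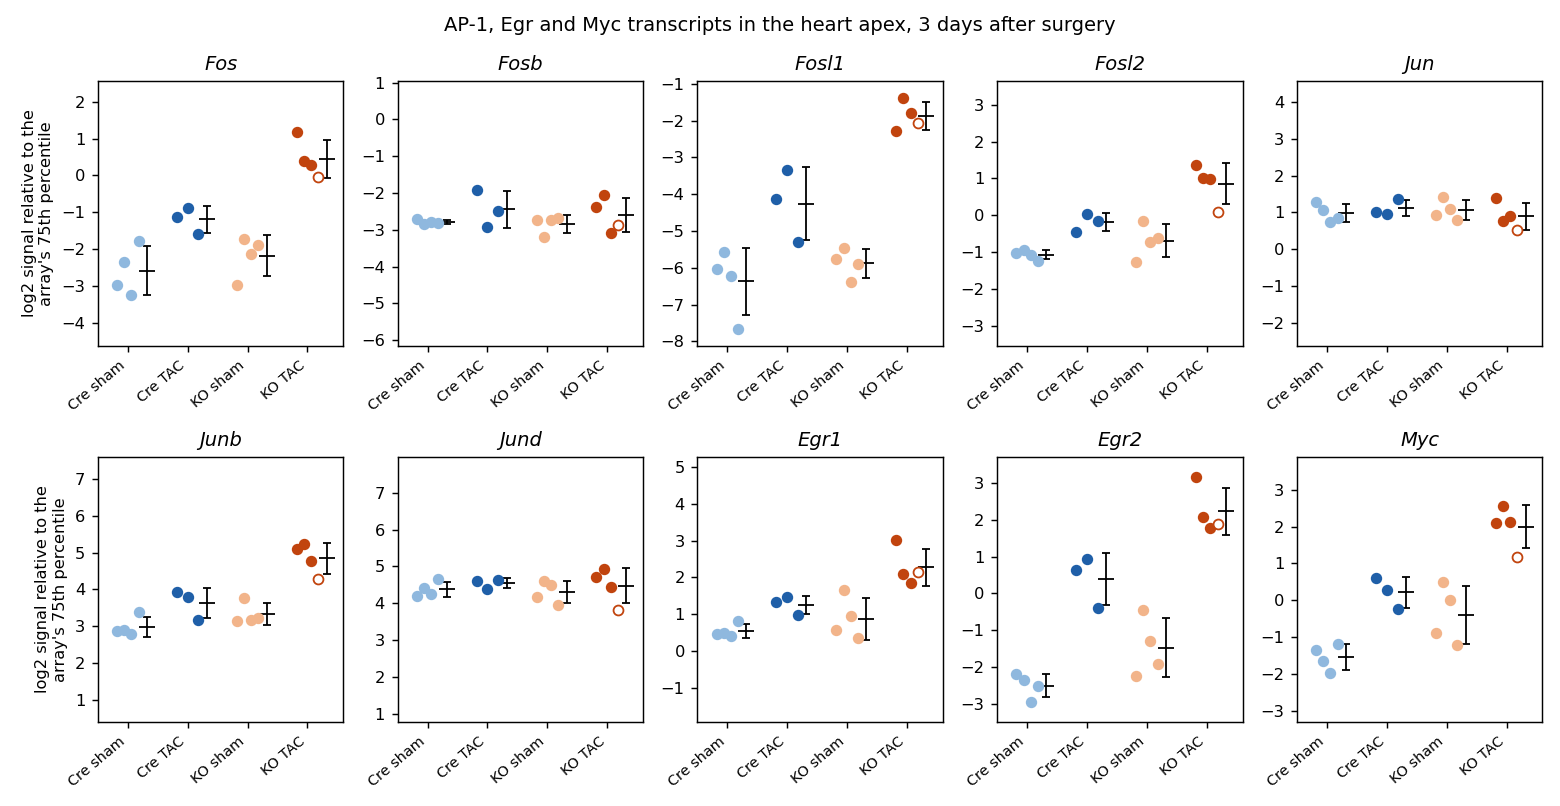
Level of each factor on each array, as log2 processed signal minus the 75th percentile of its array, for the 4 groups by file label, all panels spanning the same number of log2 units. Points are arrays, the open point is KO TAC replicate 4, and the bar is the mean with its SD over 3 or 4 arrays. In the panels of Fos, Fosl1 and Egr2 every TAC array lies above every sham array, whereas the groups overlap for Jun, Jund and Fosb.

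Fos, the founding member of the Fos family, was at -2.96, -2.35, -3.24 and -1.77 in the 4 Cre sham arrays and at -1.13, -0.88 and -1.58 after TAC. In KO sham it was at -2.97, -1.73, -2.13 and -1.90, and in KO TAC at 1.18, 0.40, 0.28 and -0.04. Every TAC array was above every sham array. The difference, as the mean of both genotypes, was 2.01 (SE 0.27; limma adjusted p = 0.000176).

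Fosl1 (also called Fra-1), a Fos family member without the strong activation domain of Fos, was near the background in sham hearts and well above it on 13 of 15 arrays, the other two being sham arrays. Its levels were -6.04, -5.57, -6.22 and -7.66 in Cre sham and -4.13, -3.33 and -5.30 in Cre TAC. They were -5.77, -5.45, -6.39 and -5.91 in KO sham and -2.28, -1.39, -1.81 and -2.07 in KO TAC. No TAC array overlapped a sham array, and Cre TAC replicate 3 lay closest to the sham range. As the mean of both genotypes it rose by 3.05 (SE 0.34; limma adjusted p = 5.57e-05). The size of this rise changed with the processing: it was 0.98 (SE 0.20) with normexp background correction and quantile scaling and 1.83 (SE 0.15) in the authors' value table, and it was called in both.

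Fosl2 (Fra-2), the other Fos-related antigen, was at -1.03, -0.93, -1.07 and -1.23 in Cre sham and at -0.44, 0.05 and -0.14 in Cre TAC by its brighter probe. In KO sham it was at -1.27, -0.17, -0.72 and -0.63, and in KO TAC at 1.36, 1.02, 0.97 and 0.09. Within each genotype the TAC arrays were all higher, but KO sham replicate 2 lay within the range of Cre TAC. The mean difference was 1.22 (SE 0.20; limma adjusted p = 0.000666), and it was 1.35 (SE 0.16) without KO TAC replicate 4, its lowest TAC array in that genotype.

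Fosb, the fourth Fos family gene measured, did not pass the test. Its levels were -2.70, -2.83, -2.78 and -2.83 in Cre sham, -1.92, -2.91 and -2.49 in Cre TAC, -2.73, -3.20, -2.72 and -2.68 in KO sham, and -2.39, -2.06, -3.09 and -2.88 in KO TAC. The groups overlapped, with some TAC arrays above every sham array and the others within the sham range of -3.20 to -2.68. The mean difference was 0.29 (SE 0.18; limma adjusted p = 0.301), and its probe was well above background on all 15 arrays.

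Among the Jun family, Junb, which pairs with Fos proteins and is itself an early response gene, was the member that rose. By its brighter probe it was at 2.86, 2.90, 2.79 and 3.38 in Cre sham, 3.94, 3.80 and 3.17 in Cre TAC, 3.13, 3.76, 3.18 and 3.23 in KO sham, and 5.09, 5.22, 4.78 and 4.28 in KO TAC. The KO TAC arrays were above all other arrays, while the Cre TAC arrays overlapped both sham groups. Averaged over the genotypes it rose by 1.09 (SE 0.18; limma adjusted p = 0.000798).

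Jun, the partner after which the family is named, lay between 0.53 and 1.42 on all 15 arrays. Its group means were 0.99 ± 0.24 (SD, n = 4) in Cre sham, 1.12 ± 0.23 (SD, n = 3) in Cre TAC, 1.06 ± 0.27 (SD, n = 4) in KO sham and 0.90 ± 0.37 (SD, n = 4) in KO TAC. The mean difference was -0.017 (SE 0.16; limma adjusted p = 0.955), and its sign changed with the scaling. Jund, the Jun family member that most tissues hold at a steady level, lay between 3.82 and 4.94, with a mean difference of 0.17 (SE 0.17; limma adjusted p = 0.547). It was at -0.032 when arrays were scaled on their medians instead. A p above the threshold does not show that these 2 transcripts were unchanged; their standard errors leave room for a small change either way.

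Egr1, a zinc finger factor that responds to stretch and growth factors, was at 0.46, 0.49, 0.40 and 0.82 in Cre sham and at 1.32, 1.47 and 0.97 in Cre TAC. In KO sham it was at 0.56, 1.65, 0.94 and 0.35, and in KO TAC at 3.00, 2.09, 1.84 and 2.14. Each TAC group was above the sham group of its genotype, but KO sham replicate 2 exceeded every Cre TAC array. The mean difference was 1.05 (SE 0.22; limma adjusted p = 0.00291).

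Egr2, best known for its role in myelination and hindbrain patterning and also an early response gene, was at -2.20, -2.35, -2.95 and -2.52 in Cre sham and at 0.64, 0.92 and -0.41 in Cre TAC. In KO sham it was at -2.25, -0.44, -1.30 and -1.93, and in KO TAC at 3.17, 2.06, 1.78 and 1.88. All TAC arrays were above all sham arrays, narrowly so for Cre TAC replicate 3 and KO sham replicate 2. On the linear scale its processed signal ran from 158 to 9130 intensity units over the 15 arrays. The rise, averaged over genotypes, was 3.30 (SE 0.31; limma adjusted p = 2.75e-05).

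Myc was at -1.35, -1.66, -1.97 and -1.18 in Cre sham and at 0.60, 0.28 and -0.23 in Cre TAC by its brightest probe. In KO sham it was at -0.89, 0.49, 0.00 and -1.23, and in KO TAC at 2.09, 2.57, 2.13 and 1.18. TAC arrays were higher within the genotype filed as KO and within that filed as Cre, and KO sham replicate 2 and replicate 3 lay within the range of Cre TAC. Myc rose by 2.08 (SE 0.28; limma adjusted p = 0.000191) as the mean of both genotypes, and by 2.21 (SE 0.26) without KO TAC replicate 4.

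The 250 bases before the start were available for 7 of the 10 genes in RefSeq's promoter table of GRCm38.p6, namely Fos, Fosb, Fosl2, Jun, Junb, Jund and Egr2. They were searched on both strands for an AP-1 site (TGANTCA), a cyclic AMP response element (TGACGTCA), an E-box (CACGTG), an Egr site (GCGNGGGCG) and the CArG box, the site of serum response factor. The window of Egr2 is shown because Egr2 rose most among the factors well above background on all arrays, and those of Fosl2 and Fosb because these Fos family relatives share a match while Fosl2 was called and Fosb was not. Each is written 5′ to 3′ on the strand of the gene, and capitals mark the match.
Egr2, plus strand of chr10:67537619-67537868: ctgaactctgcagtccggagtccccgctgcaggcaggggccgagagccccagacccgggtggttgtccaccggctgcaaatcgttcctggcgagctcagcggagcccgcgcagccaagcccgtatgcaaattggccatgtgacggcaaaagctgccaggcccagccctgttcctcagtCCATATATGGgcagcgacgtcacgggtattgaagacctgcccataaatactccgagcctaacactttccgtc
Fosl2, plus strand of chr5:32136222-32136471: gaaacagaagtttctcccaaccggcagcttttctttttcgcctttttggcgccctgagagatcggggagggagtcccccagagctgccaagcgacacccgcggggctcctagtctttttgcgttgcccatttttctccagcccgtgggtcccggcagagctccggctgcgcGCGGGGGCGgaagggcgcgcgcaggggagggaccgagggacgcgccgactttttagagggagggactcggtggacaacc
Fosb, minus strand of chr7:19310046-19310295: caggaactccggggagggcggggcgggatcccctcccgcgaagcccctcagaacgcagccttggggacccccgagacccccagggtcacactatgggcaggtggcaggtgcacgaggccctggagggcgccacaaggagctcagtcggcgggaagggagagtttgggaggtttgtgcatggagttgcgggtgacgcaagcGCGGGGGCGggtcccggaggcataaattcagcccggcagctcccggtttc
The capitals in Egr2 are a CArG box, CCATATATGG, from base -72 to base -63 counted back from the start, and those in Fosl2 and Fosb are an Egr site, GCGGGGGCG, from -79 to -71 and from -50 to -42. Among all 32851 windows of this length 1.47% held a CArG box and 4.7% an Egr site. The table had 5 windows for Egr2 from different annotated starts, some of them overlapping, and another of these held an E-box, a motif found in 6.02% of all windows. No window of the 7 genes held the letters searched for an AP-1 site, which 6.75% of all windows held, or for a cyclic AMP response element, which 1.55% held. A match is a run of letters and was not tested for binding here.

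**Figure D2:**
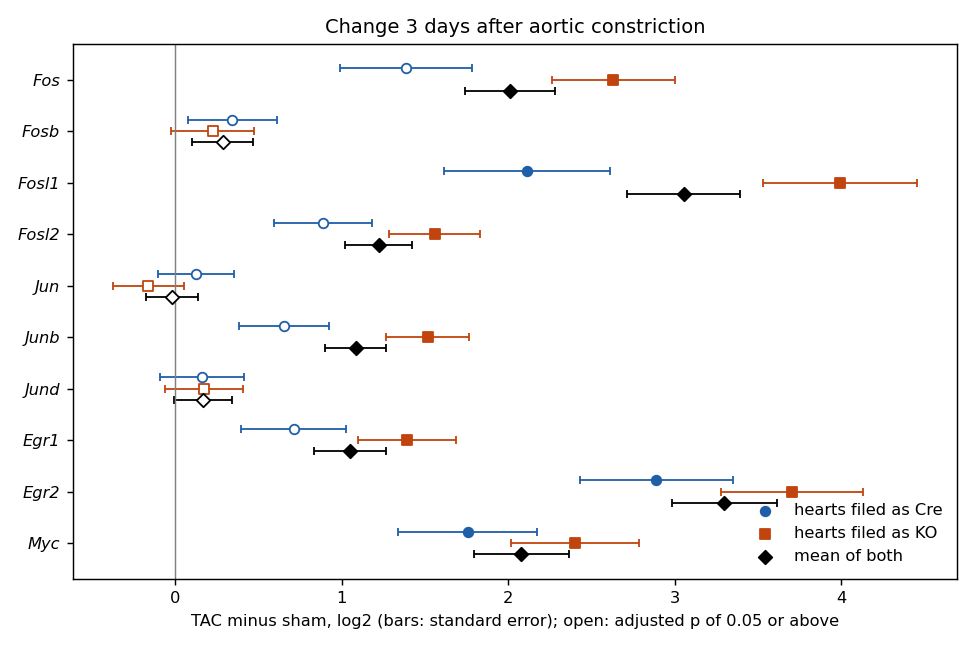
TAC minus sham for each factor on the log2 scale, with bars for the standard error, in the hearts filed as Cre, in those filed as KO and as the mean of both. Filled symbols passed an adjusted p of 0.05 in limma and open ones did not. All 7 factors called in the mean are filled in the KO rows, and Fosl1, Egr2 and Myc are filled in the Cre rows, while Jun, Jund and Fosb are open throughout.

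The response was present in both genotypes as filed, and fewer factors passed the test in the hearts filed as Cre. There Fosl1 rose by 2.11 (SE 0.50), Egr2 by 2.89 (SE 0.46) and Myc by 1.76 (SE 0.42), the limma adjusted p being 0.0255, 0.00324 and 0.0262. With normexp background correction and quantile scaling Fosl1 was at 0.52 here and was not called (limma adjusted p = 0.364). By the processed signal 3 of 10 members were called, where 4.3% of all features were called higher and 1.64% lower. Fos (1.39, SE 0.40), Fosl2 (0.89, SE 0.30), Egr1 (0.71, SE 0.32) and Junb (0.65, SE 0.27) had positive differences with adjusted p from 0.0596 to 0.248. For Egr1, Egr2, Fos, Fosl1, Fosl2 and Myc the 3 Cre TAC arrays were all above the 4 Cre sham arrays, a pattern 13.4% of features showed, and Junb overlapped. The count of 3 rested on few arrays. Without KO TAC replicate 4, which enters this contrast through the shared spread, it was 5, with 8.36% of all features called higher, and it was 1 without Cre sham replicate 3, without Cre TAC replicate 1 or without Cre TAC replicate 2. Over all features 627, 484 and 359 were called higher in those last fits, in the order named, against 1109 with all arrays. With slide as a block the count was also 5, with 1320 of 25780 features called higher.

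In the hearts filed as KO all 7 were called. The rises were 3.99 (SE 0.46) for Fosl1, 3.71 (SE 0.43) for Egr2, 2.63 (SE 0.37) for Fos, 2.40 (SE 0.39) for Myc, 1.56 (SE 0.27) for Fosl2, 1.52 (SE 0.25) for Junb and 1.39 (SE 0.29) for Egr1. The limma adjusted p lay between 0.000156 and 0.00435. With normexp background correction and quantile scaling the rise of Fosl1 was 1.44. In the values the authors deposited, under their own labels, 6 of 10 members were called in KO, with 2618 of 25780 features called higher. The matched columns of that KO are the arrays filed here as Cre. By the processed signal 10.6% of all features were called higher and 12.6% lower in the hearts filed here as KO. For all 7 the KO TAC arrays did not overlap the KO sham arrays, as held for 10.4% of features. Without KO TAC replicate 4 the same 7 were called, with 15.2% of all features called higher.

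The 2 TAC groups differed as well. Egr2, Fos, Fosl1, Junb and Myc were higher in the hearts filed as KO TAC than in those filed as Cre TAC, by 1.84 (SE 0.46), 1.65 (SE 0.40), 2.37 (SE 0.50), 1.21 (SE 0.27) and 1.78 (SE 0.42). The limma adjusted p ran from 0.0253 for Fosl1 to 0.0499 for Egr2, 5 of 10 members where 1.14% of all features were called in that direction and 1.91% in the other. Fosl2 (1.04, SE 0.30; adjusted p = 0.0759) and Egr1 (1.02, SE 0.32; adjusted p = 0.106 in limma) were not called, and for all 7 the KO TAC arrays lay above every Cre TAC array, as held for 4.97% of features. Without KO TAC replicate 4 Fosl2 joined them (1.30, SE 0.24; limma adjusted p = 0.00844), giving 6 of 10 where 4.36% of all features were called higher. The calls lay close to the threshold, and the count was 0 without Cre TAC replicate 1, Cre TAC replicate 3, KO TAC replicate 2 or KO TAC replicate 3, 1 without Cre sham replicate 2 or KO TAC replicate 1, 2 without Cre sham replicate 1 or KO sham replicate 3, and 3 without Cre sham replicate 3 or KO sham replicate 4. Over all features 46, 24, 136 and 128 were called higher in the fits with a count of 0, in the order named. The fits with a count of 1, 2 or 3 called 168 to 349 higher, and the fit of all arrays 295. The count was also 0 when arrays were scaled on their medians, with 23 of 25780 features called higher. When only these 2 groups entered the fit it was 0 as well, and 0 of 23950 features were called in either direction. In the authors' value table under its own labels 7 members were lower in KO after TAC, where 1686 of 25780 features were called lower. Which genotype had the higher levels therefore cannot be told from these labels.

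Whether the TAC response itself differed between the genotypes was tested as the difference of the responses, and no member passed. The responses were larger in the hearts filed as KO by 1.88 (SE 0.68) for Fosl1, 1.25 (SE 0.54) for Fos and 0.86 (SE 0.37) for Junb. Those 3 had an unadjusted p under 0.05 in limma, and the adjusted p of the 10 members lay between 0.484 and 0.995. Of all features 0.00388% were called in this direction and 0.00776% in the other. After sham no member was called between genotypes either, with an unadjusted p under 0.05 for Egr2 (1.02 higher in the hearts filed as KO, SE 0.43) and Myc (1.13, SE 0.39), and 0.00388% of all features called higher and 0.0116% lower. The comparisons of this and the preceding paragraphs share arrays, so their values stand side by side and are not independent.

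For each of the 7 called factors the group means stood in the same order, Cre sham lowest, then KO sham, Cre TAC and KO TAC. The sham groups overlapped for all 7, where in 3.76% of features the KO sham arrays all lay above the Cre sham arrays. KO sham and Cre TAC overlapped for Fosl2, Junb, Egr1 and Myc and did not overlap for Fos, Fosl1 and Egr2. Those 3 were the ones whose 7 TAC arrays all lay above the 8 sham arrays, a pattern shown by 3.75% of features. The share of all features with this order of group means, or with KO sham and Cre TAC apart, was not counted.

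**Figure D3:**
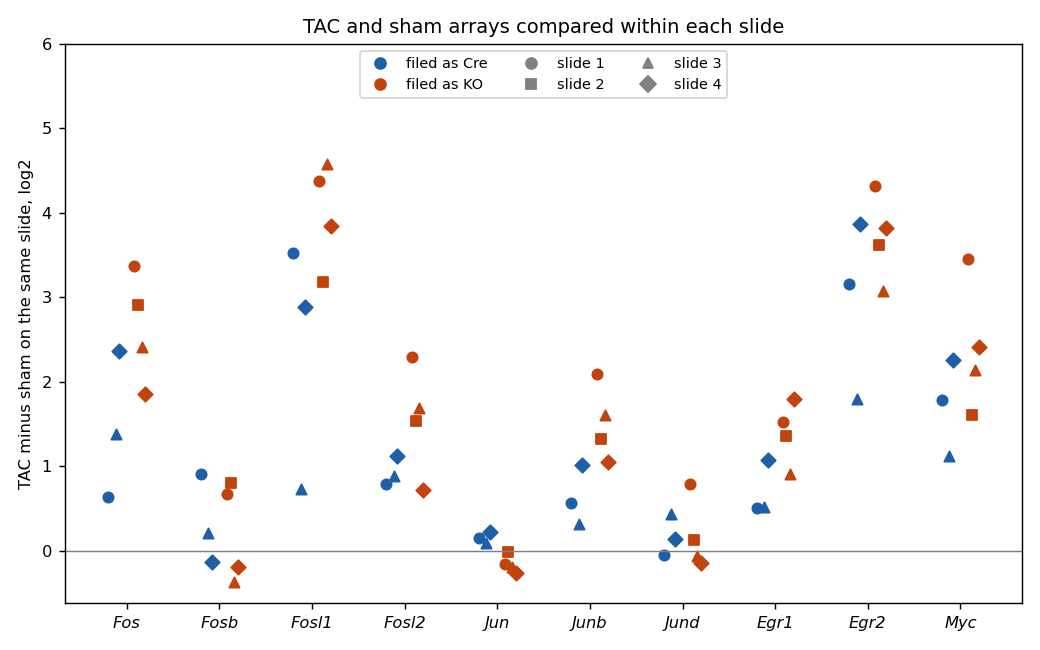
TAC minus sham on the log2 scale for arrays of 1 genotype that share a slide, 7 pairs in all, with marker shape giving the slide and colour the genotype as filed. Every pair lies above 0 for Fos, Fosl1, Fosl2, Junb, Egr1, Egr2 and Myc, and pairs lie on both sides of 0 for Fosb, Jun and Jund.

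Arrays on a slide deviated from their group means together, with a median correlation of 0.28 over 21 same-slide pairs against -0.11 over 63 pairs of other slides, so TAC and sham were also compared within slides. Each of the 7 called factors was higher after TAC in 7 of 7 such pairs. The factors had been called on these same arrays, so the pairs are not a separate test. The share of all features with such pairs was not counted. The differences ran from 1.80 to 4.32 for Egr2, from 0.73 to 4.58 for Fosl1, from 0.64 to 3.37 for Fos and from 1.12 to 3.46 for Myc. For the smaller responses they ran from 0.72 to 2.29 for Fosl2, from 0.31 to 2.09 for Junb and from 0.51 to 1.79 for Egr1. Fosb was higher in 4 of 7 pairs, Jund in 4 and Jun in 3. With slide as a block in the fit the 7 factors were again called as the mean of both genotypes, where 4032 of 25780 features were called higher.

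On some arrays most of the 7 factors were high or low together within the group. KO sham replicate 2 had the highest KO sham level of all 7. Cre TAC replicate 3 had the lowest Cre TAC level of 6, all but Fosl2, and Cre sham replicate 3 the lowest Cre sham level of 5. KO TAC replicate 4 was lowest in its group for 4, namely Fos, Fosl2, Junb and Myc by their brightest probes. On KO sham replicate 2 the summed level of the macrophage and monocyte markers was 20.4, the highest of the sham arrays, that of the fibroblast markers was 204, also the highest of them, and that of the neutrophil markers was 0.373, the lowest of all 15 arrays. KO sham replicate 4 showed the reverse for neutrophil markers, at 13.5, and was not the highest sham array of its group for any of the 7. KO sham replicate 2 also had the highest summed level of the load response genes among sham arrays, at 998 against 877 to 971 in Cre TAC, and the lowest of cardiomyocyte markers (1633) and red blood cell markers (289.9) among them. The part of these differences in the levels of the 7 factors was not tested. Cre TAC replicate 3 had the lowest summed macrophage, neutrophil and fibroblast levels of the Cre TAC arrays, at 14.4, 9.06 and 195. It had the highest cardiomyocyte, endothelial, red blood cell and load response levels of them, at 2082, 33.9, 416 and 971. Their part in the factor levels of this array was not tested either.

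Fosl2, Junb and Myc were each read by more than 1 probe. The 3 probes of Myc gave TAC differences of 2.08 (SE 0.28), 2.02 (SE 0.28) and 1.77 (SE 0.21) as the mean of both genotypes, and those of Junb gave 1.09 (SE 0.18) and 1.14 (SE 0.17), all called when every probe was fitted on its own. The dimmer probe of Fosl2 gave 1.39 (SE 0.57; limma adjusted p = 0.0910) and was not called. It was well above background on 13 of 15 arrays. It read -0.57 on KO TAC replicate 4 and between -5.42 and -4.26 on the other KO TAC arrays, where the brighter probe read 0.09 and 0.97 to 1.36, so the probes of Fosl2 disagreed on that array. Those of Myc did too: the dimmest read -0.18 there and -1.23, -0.70 and -1.18 on the other KO TAC arrays, whereas the brightest was lowest there.

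**Figure D4:**
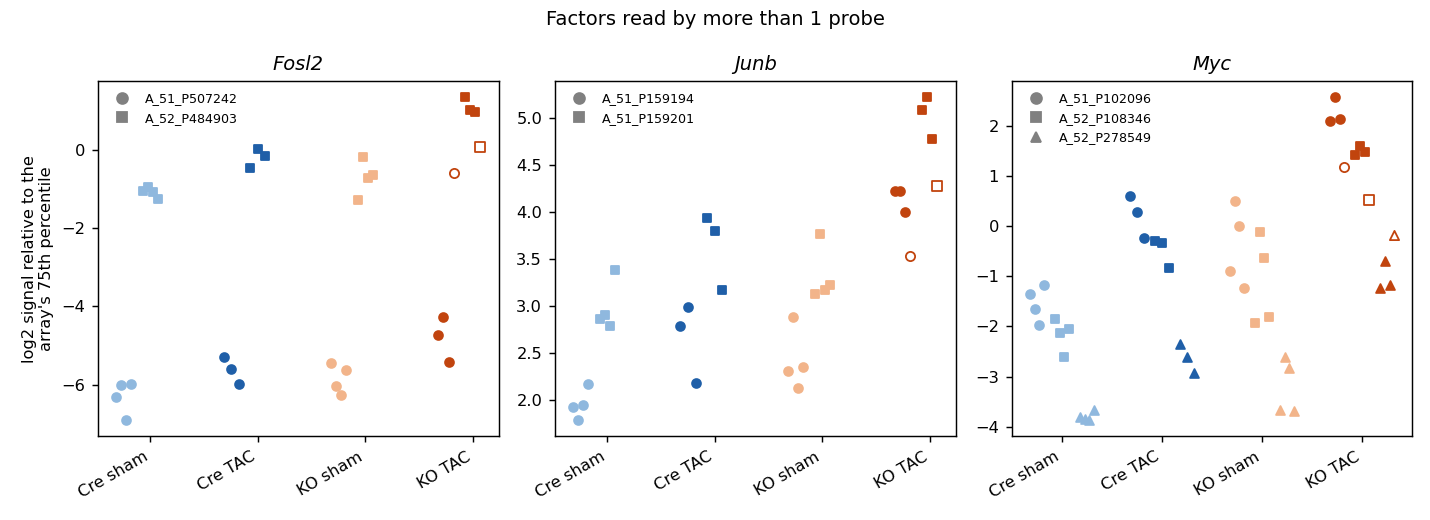
Level on each array for every probe of Fosl2, Junb and Myc, as log2 processed signal minus the 75th percentile of its array, with marker shape giving the probe and open markers KO TAC replicate 4. The dimmer probe of Fosl2 and the dimmest probe of Myc are at their highest on KO TAC replicate 4, where the other probes of these genes are lowest in the group.

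The genes around the factors were counted from lists of their partners, regulators and textbook targets, and each count is to be read against the 13.3% of all features called higher and 13.7% called lower after TAC. Of 14 other bZIP genes that can partner AP-1 proteins, 5 rose and none fell after TAC as the mean of both genotypes, with a median difference of 0.28 against 0.044 over all features. Atf3, a stress-induced bZIP repressor, rose by 2.15 (SE 0.35; limma adjusted p = 0.000659), and Maff, a small Maf protein, rose by 1.53 (SE 0.19; limma adjusted p = 9.25e-05). Of 36 other immediate early genes 18 rose and 4 fell, with a median of 0.53. Nr4a1, an orphan nuclear receptor, rose by 1.90 (SE 0.35), whereas Gadd45a, a DNA damage response gene, fell by 2.18 (SE 0.23) and had non-overlapping ranges, 0.94 to 1.60 on sham and -1.47 to 0.17 on TAC arrays. Both corepressors of Egr proteins, Nab1 and Nab2, missed the threshold, with a median of 0.35.

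The Myc network holds the relatives and antagonists of Myc, most of which bind Max or its homologue Mlx. Of 11 members 1 rose, a share below that of all features, and 4 fell, with a median of -0.19. The riser was Mxd3, a Max partner that opposes Myc at E-boxes, at 2.62 (SE 0.29; limma adjusted p = 4.97e-05). Mlxipl, the glucose-responsive factor ChREBP, fell by 1.64 (SE 0.39; limma adjusted p = 0.00743), and Mycn, Max and Mxi1 fell by 1.26, 0.43 and 0.84. Of 23 textbook Myc targets 11 rose and 2 fell, with a median of 0.38, led by the transferrin receptor gene Tfrc at 1.84 (SE 0.27) and the ribosome biogenesis gene Rrp12 at 1.09 (SE 0.16).

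Of 17 textbook AP-1 targets tested 13 rose and none fell, with a median of 2.47, the highest median of these lists. Spp1, which encodes the matrix protein osteopontin, rose by 5.44 (SE 0.66), and the cytokine gene Il6 by 5.01 (SE 0.72), although Il6 was well above background on only 1 of 4 Cre sham arrays. Of 10 Egr1 targets, a list that shares members such as Tgfb1 and Nab2 with the other lists, 4 rose and 1 fell, with a median of 0.21. Ptges, a prostaglandin E synthase gene, rose by 1.31 (SE 0.28). The targets were not chosen from heart tissue and many have other regulators, so their counts describe these lists only.

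Upstream of the factors lie MAP kinases, which switch on serum response factor partners, and phosphatases and Sprouty proteins, which damp those signals. Of 20 MAP kinase and serum response factor genes 2 rose, Rps6ka3 by 1.02 (SE 0.19) and Mapk8 by 0.63 (SE 0.18), and 1 fell, neither share above that of all features. Of 14 MAP kinase phosphatase and Sprouty feedback genes 6 rose and 1 fell, with a median of 0.44. Dusp4 rose by 1.61 (SE 0.15) and Dusp14 by 1.16 (SE 0.19), and Dusp7 fell by 1.08. Without KO TAC replicate 4, 18.5% of all features were called higher and 5196 of 25095 lower. The rises and falls of the lists were then 6 and 2 of 14 bZIP partners, 21 and 4 of 35 immediate early genes and 1 and 4 of 11 Myc network genes. They were 14 and 3 of 23 Myc targets, 14 and 0 of 16 AP-1 targets and 4 and 1 of 10 Egr1 targets. Of 20 kinase and regulator genes 6 rose and 3 fell, so their share of rises was above that of all features, unlike with all arrays. Of 14 phosphatase and Sprouty genes 6 rose and 1 fell, and Nab1 or Nab2 gave 1 rise.

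**Figure D5:**
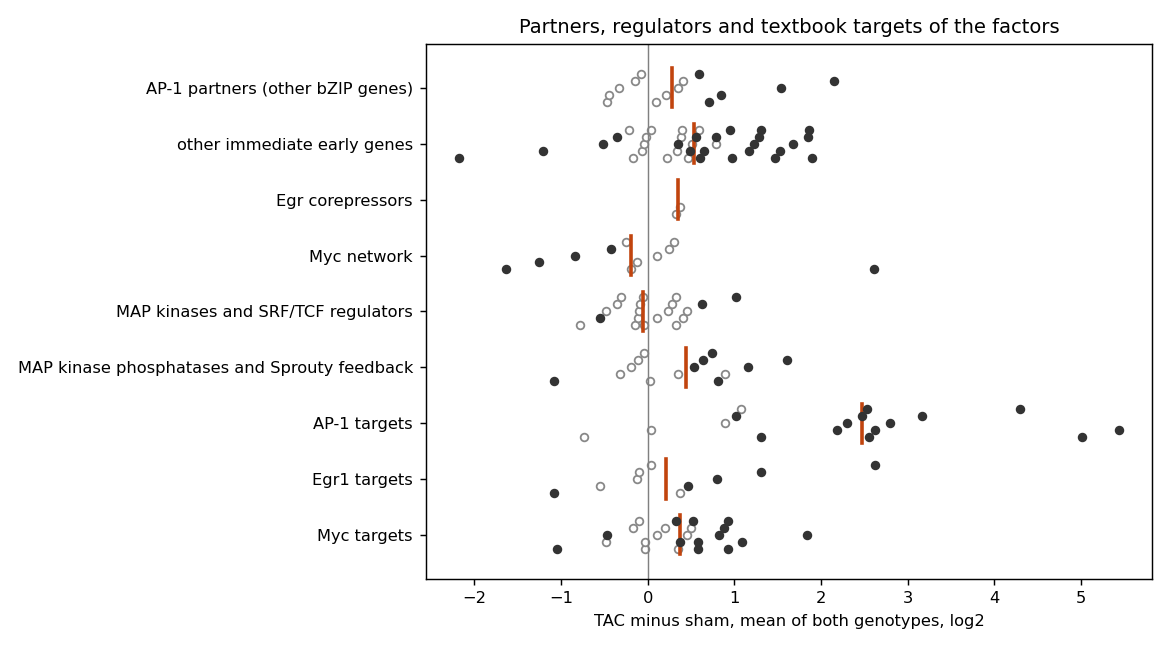
TAC minus sham, mean of both genotypes, on the log2 scale for the genes of each list, with filled points for genes at an adjusted p under 0.05 in limma and a vertical bar at the list's median. The AP-1 target list has 13 filled points, all above 0, and a median of 2.47, and the Myc network list has a median of -0.19.

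In the hearts filed as Cre 11 of 17 AP-1 targets, 1 of 14 bZIP partners and 2 of 23 Myc targets were called higher, where 4.3% of all features were. In those filed as KO the counts were 12, 4 and 10, where 10.6% of all features were called higher. The counts of 1 of 14 and 2 of 23 are near the share of all features. Of the other immediate early genes 1 was called higher and 1 lower in the hearts filed as Cre, and 15 and 4 in those filed as KO. Whether these lists differed between the genotypes was not tested.

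Markers of some other cell types also differed after TAC as the mean of both genotypes, where 13.3% of all features were called higher and 13.7% lower. Of 6 neutrophil markers tested 4 rose, and their summed level was 0.512 to 1.76 in Cre sham, 9.06 to 10.9 in Cre TAC, 0.373 to 13.5 in KO sham and 10.0 to 50.3 in KO TAC. Cxcr2 and Retnlg, which define neutrophils, were not well above background on every array, and Ly6g was not tested. Of 7 macrophage and monocyte markers 3 rose, with summed levels of 8.04 to 12.9, 14.4 to 24.9, 9.80 to 20.4 and 14.8 to 20.4 in the same order of groups. Of 6 fibroblast markers 2 rose, with summed levels of 114 to 160 in Cre sham, 195 to 235 in Cre TAC, 129 to 204 in KO sham and 99.1 to 184 in KO TAC. Taken by genotype as filed, 2 macrophage markers were called higher in Cre and none in KO. For fibroblasts 1 marker was called higher in Cre, and 1 higher and 2 lower in KO. Of 5 endothelial markers 3 fell, of 4 red blood cell markers 3 fell, and of 5 smooth muscle and pericyte markers 1 rose and 1 fell, as the mean of both. Of 8 cardiomyocyte markers 1 fell, a share below that of all features. The part of these cell types in the levels of the 10 factors was not tested.

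The genes whose levels were most like those of each called factor were found by correlation over the 14 arrays without KO TAC replicate 4, among 12607 named genes well above background on all of them. These arrays include both operations, so a shared TAC difference enters each correlation. For Fos they were Socs3 and Btg2 (r = 0.98 for both), for Egr1 Atf3 (r = 0.97) and Nrap (r = 0.96), and for Egr2 Hbegf and Azin1 (r = 0.99 for both). For Fosl1 they were Lsm11 and Sri (r = 0.98 for both), for Fosl2 Zkscan5 (r = 0.99) and 2310057M21Rik (r = 0.98), for Junb Slc10a3 and Ro60 (r = 0.98 for both), and for Myc Zfp593 and Flnc (r = 0.99 for both). Socs3, Btg2, Atf3 and Hbegf are themselves on the lists above, as early response genes, a bZIP partner and an AP-1 target.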

How the data were processed

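RNA from each apex was copied and marked with Cy3 for 1-colour Agilent arrays, per the labels' protocols. Scanner files, 1 for each of the 15 samples, give spot intensity from Agilent Feature Extraction 10.7.3.1. Background was already subtracted there and arrays were not scaled to one another, per the file headers. A deposited value table gives log2 values scaled by the authors across arrays, with the background step not stated. limma is named in the submitters' processing notes without a version.

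Spots of 1 probe were averaged without control spots and outlier spots. Accessions of 24844 of 41174 probes were named through a RefSeq gene table (GRCm38.p6). Each log2 processed signal had its array's 75th percentile subtracted. A probe entered when well above background on 3 or more arrays (32504 probes), and a gene took its brightest probe, giving 25780 features. All groups were fitted together in limma 3.58.1 under R 4.3.3, with Benjamini-Hochberg adjustment over all features and a threshold of 0.05. The fit was tested on simulated data, drawn independently for each array and so without the correlation within slides. Of 100 features changed by log2 1, the mean comparison recovered 55, Cre 25 and KO 28. Of 100 changed by log2 2, they recovered 81, 59 and 64. False calls numbered 3, 2 and 5 in the same order. p-values measure the spread between arrays, whose number, 3 or 4 a group, limits the precision. No probe of the 10 genes was saturated. Summed marker levels are sums of linear signals, each relative to the 75th percentile.

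The text names all 10 members, from each list the 2 called genes of largest change as the mean of both genotypes, Nppa and Nppb, and for each called member the 2 most correlated genes. Acta1, Myh7, Dusp7, Mycn, Max and Mxi1 were named after their values were seen. Some list genes, 1 of them chosen by this rule, are not reported here by name. The members and lists were chosen with earlier results of these data known. Alternatives covered scaling, background correction, filters, probe choice, slide and replicate blocks, variance models, each array left out and the other labels. The normexp alternative took the median spot signal and changed background correction and scaling together. Plots used matplotlib 3.10.9 and pandas 2.3.3 in Python 3.11.15.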

Additional observations from a re-analysis of the deposited data

Results flagged for a closer look

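Junb on KO sham replicate 2 was at 3.76, where the nearest KO sham array was at 3.23, and the gap was large for a group of 4. Fosb on the same array was at -3.20, where the nearest was at -2.73. One of these is a high and the other a low value. In all, 30 groups of 4 arrays were checked and 2 stood out, and chance alone flags about 1 in 20 groups. Leaving this array out kept all 7 calls for TAC as the mean of both genotypes.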

How the results depend on the processing

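As the mean of both genotypes, 7 members were called under every alternative but 2. Median scaling gave 4 (Fos, Fosl1, Egr2 and Myc), with 1318 of 25780 features called higher, and the operation of the description field gave 0, as over all features. Fosl2, Junb and Egr1 were then at 1.02, 0.89 and 0.85 under median scaling, with limma adjusted p of 0.0863, 0.116 and 0.108. That scaling moved the median of all features to -0.16, quantile scaling moved it to -0.10 and dropping the filter to 0.20, from 0.044. Leaving out any 1 array kept 7 calls. In the hearts filed as KO, median scaling gave 4, with 769 of 25780 features called higher, and the description field 0, as over all features. The values the authors deposited gave 6 under their own KO label (2618 of 25780 features higher).

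In the hearts filed as Cre 3 were called, with 1109 of 25780 features called higher. Median scaling gave 1 (351 features higher), the slide block 5 (1320), slide as a random block 5 (1541) and array weights 6 (2383). The slide block without KO TAC replicate 4 gave 7 (2992 of 25095 features higher), the description field 0, as over all features, and leaving out 1 array gave 1 to 5. The values the authors deposited gave 7 under their own Cre label (3992 of 25780 features higher). After TAC between genotypes 5 were called, with 295 of 25780 features called higher. Median scaling gave 0 (23 of 25780 features higher), no filter 1 (145 of 33508), only the groups compared 0 (0 of 23950) and the description field 0 (0 of 25780). The values the authors deposited gave 7 in the other direction (1686 of 25780 features lower), and leaving out 1 array gave 0 to 6. After sham, array weights gave 1 higher, with 256 of 25780 features called higher. For the difference of responses the authors' value table gave 1 lower, with 90 of 25780 features called lower. Every scanner file that matched a column of the value table did so under the other genotype label. The counts by genotype from that table therefore come from other arrays as well as other processing. What else moved the counts was not tested.

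Same-numbered replicates did not deviate together (median r = -0.061, from -0.39 to 0.53 over 21 pairs; 5 of 15 arrays correlated best with their own number). With replicate number as a block 7 members were called in the mean, 2 in the hearts filed as Cre (5 without KO TAC replicate 4) and 1 between genotypes after TAC. Of 25780 features 3034, 718 and 119 were called higher in these comparisons, and 1401 of 25095 in Cre without KO TAC replicate 4.

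Signs changed for members that were not called. Jun as the mean of both genotypes was at 0.025 with the percentile over bright probes, 0.056 in the authors' value table, 0.035 and 0.0040 with slide as a block and a random block, 0.053 with the slide block without KO TAC replicate 4, 0.0047 with array weights, 0.16 by the description field, and -0.10 to 0.045 with 1 array left out. Jun was at -0.068 (Cre) and 0.18 (KO) in the authors' value table under its own genotype labels. It was at 0.29 (KO) by the description field, and at -0.0046 to 0.22 (Cre) with 1 array left out. Fosb was at -0.090 in the mean and -0.50 in KO with quantile scaling alone. In KO it was at -0.16 with normexp and quantile scaling, -0.14 with median scaling and -0.24 by the description field. Jund was at -0.032 in the mean and -0.19 in KO with median scaling. By the description field Fos, Junb, Egr1 and Myc in Cre were at -0.21, -0.15, -0.12 and -0.066. Fosl1 near background limits the precision of its sham levels.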
